A study of Mus musculus with 13 samples.

Results

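The ligands and receptors of the tumor necrosis factor (TNF) superfamily were examined in early precursors with lymphoid and myeloid potential (EPLMs) from the bone marrow of mice that overexpress OBF1. Members were the genes whose symbol in the platform annotation begins with Tnfrsf or Tnfsf and a digit, together with Fas, Fasl, Cd40, Cd27, Cd70, Lta, Ltb, Ltbr and Tnf. This rule found 36 of the 18193 genes with a probe set of 1 symbol, namely 23 receptors, 12 ligands and Tnfsf13os, a noncoding RNA named for its position opposite Tnfsf13. BCS EPLMs came from 3 transgenic mice and WT EPLMs from 3 control mice, all 7 weeks old and bred on the mixed B6CF1 x C57BL/6 background, with 1 Mouse 430v2 GeneChip per mouse. BCS mice carry a human OBF1 cDNA with a C-terminal HA tag, which is driven by the heavy chain enhancer Eμ and a VH promoter, and OBF1 is the coactivator that joins Oct1 and Oct2 on octamer motifs. Several independent transgenic lines were made, and the line of each array is not given in the sources used here. The promoter and enhancer act in the B lineage and also in T cells. Each array is a separate mouse, and the WT mice are littermates of transgenic mice.

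TNF superfamily ligands are mostly trimeric membrane proteins, some of which are also shed, and they cluster their receptors on the cell they bind. Receptors with a cytoplasmic death domain can recruit FADD or TRADD and caspase-8, whereas receptors without one bind TRAF adaptors and lead to NF-κB and MAP kinase signaling. In B lymphocytes the family is best known for BAFF and APRIL, which sustain peripheral B cells and plasma cells through BAFF receptor, TACI and BCMA, and for CD40, which drives germinal center responses. RANK ligand and its receptor RANK govern osteoclasts and lymph node formation, and TRAIL and Fas ligand induce apoptosis of their target cells.

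In BCS EPLMs, 2 of the 36 members rose and none fell. The threshold was a limma adjusted p under 0.05 for the brightest probe set of each gene. Tnfsf11, which encodes RANK ligand, rose by 2.48 on the log2 scale (standard error, SE, 0.40), and Tnfrsf21, which encodes the death domain receptor DR6, rose by 0.90 (SE 0.21). The 2 members are 5.56% of the family, where 3.15% of the 18193 genes rose and 4.7% fell under the same rule (7.85% in either direction). The median log2 change of the 36 members was 0.01, beside 0.01 for all genes tested, with single members from -1.78 to 2.48. At an unadjusted p under 0.05 from limma there were 8 members, in a background of 23% of all genes. The genotypes did not overlap for 6 members that were higher in BCS mice (16.7% of the family, 14.5% of all genes) and for 3 that were lower (8.33% of the family, 14.2% of all genes). For a single gene, an exact two-sided permutation test of 3 mice against 3 cannot go below p = 0.1, so the calls rest on the variances that limma shares across probe sets. By the methods' t-test, at the unadjusted p and 2-fold medians the study required, none of the members passed, where 2.76% of all genes did. With a Benjamini-Hochberg adjusted p under 0.05 and the same 2-fold medians none of the members passed either, where 0.489% of all genes did.

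**Figure D1:**
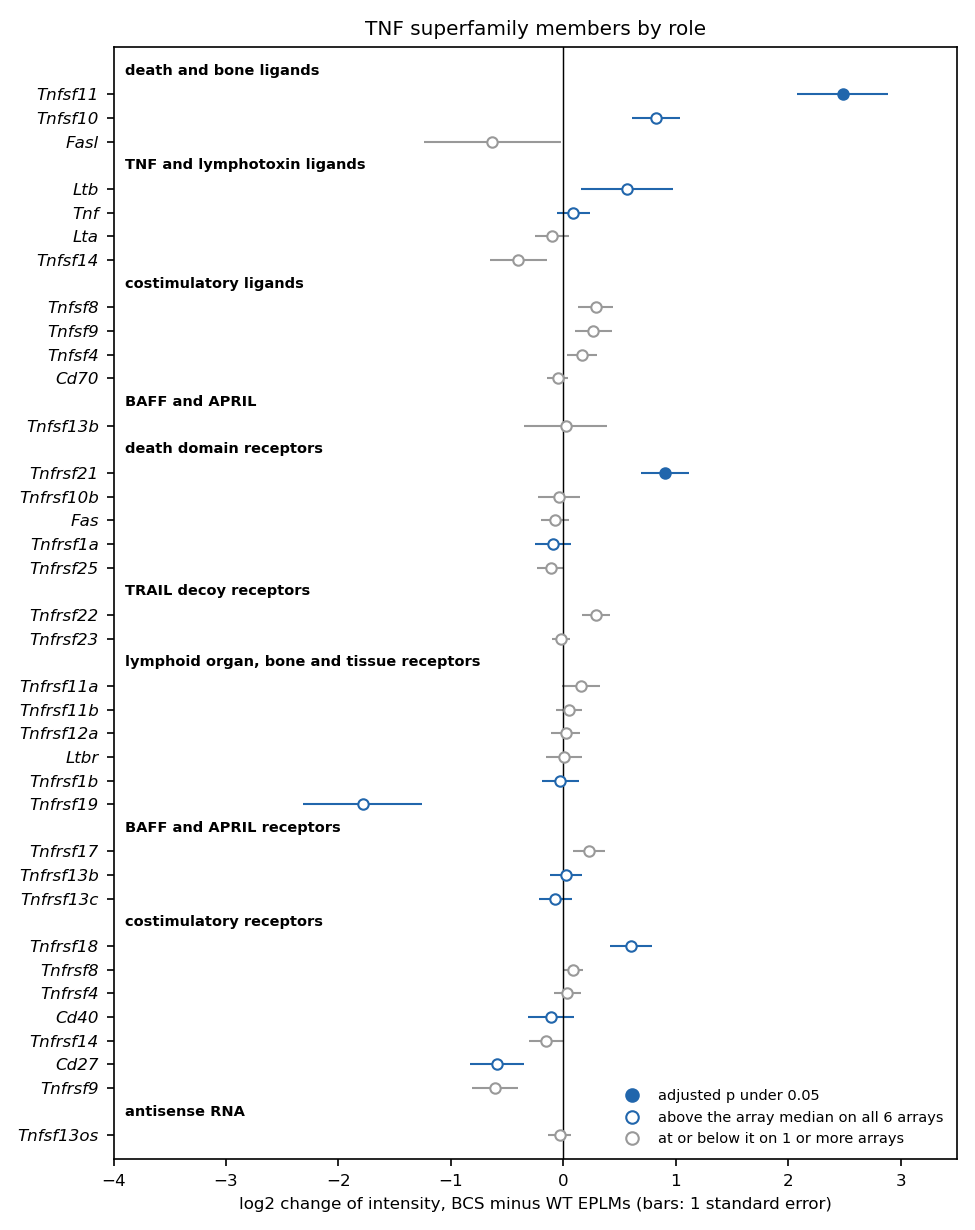
Log2 change of GCRMA intensity (BCS minus WT EPLMs, 3 mice each) of the 36 members by role, with bars of 1 SE from limma. Filled points passed an adjusted p of 0.05 (Tnfsf11 at 2.48 and Tnfrsf21 at 0.90), and gray points are members at or below the array median on at least 1 of the 6 arrays.

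Signal limits what can be read from this family. The median intensity of each array was 20, and 13 members lay above it on all 6 arrays, 12 on some and 11 on none. Only 11 members had an intensity above 90 on every array, and all the others stayed at 108 or lower on every array, with log2 changes between -0.63 and 0.29. Values near the array median hold little signal over background, so neither the presence nor a change of members at that level can be judged here. Intensities of different probe sets are not on 1 scale of transcript amount, so they served only to choose probe sets and members to describe, and genotypes are compared within a probe set or within the same sum of probe sets. A filter that kept probe sets above the array median on at least 3 of 6 arrays retained 17 members.

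**Figure D2:**
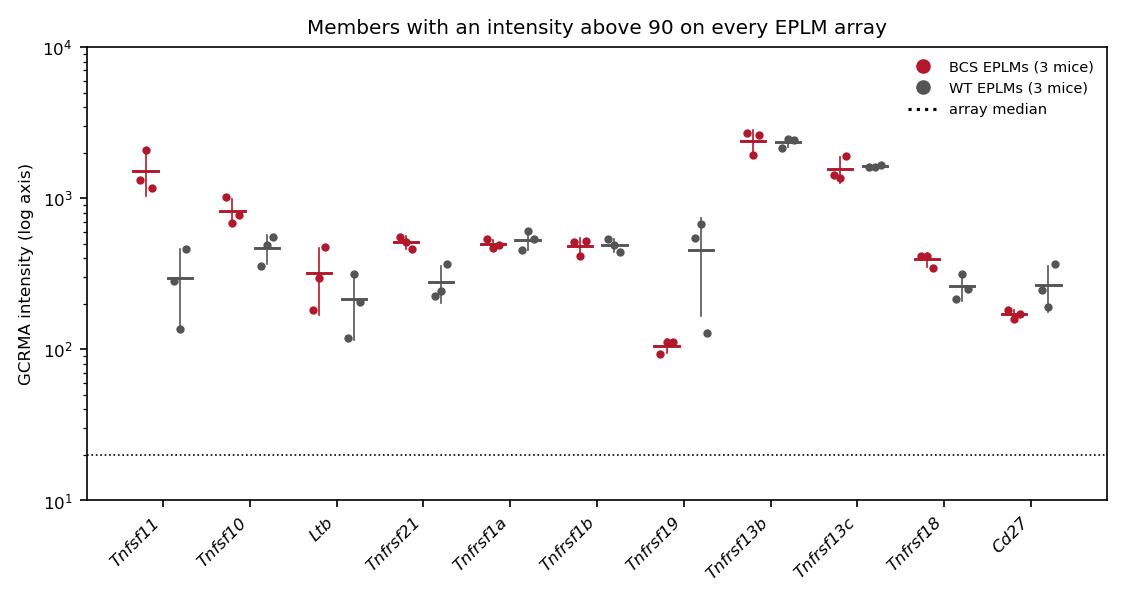
GCRMA intensity (log axis) of the 11 members above 90 on every EPLM array. Points are single mice (BCS in red, WT in gray), horizontal bars are means, vertical lines are 1 SD on each side and the dotted line is the array median; the 3 BCS mice lie above the 3 WT mice for Tnfsf11, Tnfsf10, Tnfrsf21 and Tnfrsf18, and below them for Tnfrsf19 and Cd27.

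The arrays also differed in markers of other cells, in lists chosen with earlier results of these data known. Under the same rule 3.15% of all genes rose and 4.7% fell. Of the plasmacytoid dendritic cell markers, 13 were measured, and 9 of them fell in BCS EPLMs and none rose. Their summed intensity lay between 48661 and 65225 in BCS and between 96678 and 108567 in WT EPLMs. Irf8, Tcf4, Ly6d and Spib together made up most of each sum, so the sums do not describe the list as a whole. Irf8 and Tcf4 fell, Ly6d overlapped between genotypes (log2 change -0.07), and Spib was higher in each BCS mouse without passing (0.25). Of 10 NK cell markers, 2 fell and none rose, with sums from 1485 to 4288 in BCS and from 8278 to 14986 in WT EPLMs. Klrd1 alone made up most of each WT sum (1087, 1306 and 2430 in BCS and 6901, 8110 and 7943 in WT EPLMs). All 10 log2 changes were below 0, but the genotypes overlapped for every NK marker except Klrd1 and Klrk1, which fell. Of all genes, 14.2% were lower in BCS mice without overlap. Of 7 B lineage markers, 5 rose and none fell, with sums from 81790 to 88162 in BCS and from 34192 to 60095 in WT EPLMs. Of 9 T cell markers, Thy1 and Cd247 rose and Cd8a fell (sums from 1926 to 2606 in BCS and from 719 to 1544 in WT EPLMs). Thy1 and Cd247 together made up most of each T cell sum, and 6 of the 9 log2 changes were below 0, so the sums do not describe the list as a whole. Of 11 myeloid markers only Csf1r fell (sums from 8075 to 48651 in BCS and from 22751 to 72153 in WT EPLMs). None of the 6 erythroid and megakaryocyte markers passed, with sums from 209 to 237 in BCS EPLMs and from 237 to 3303 in WT EPLMs. The highest NK, myeloid and megakaryocyte sums all belonged to WT replicate 2. Among the BCS arrays, replicate 2 also had the highest NK and myeloid sums, and replicate 3 the highest megakaryocyte sum. Replicate 1 had the lowest NK sum in both genotypes. Among the defining markers, only Cebpa of the myeloid list and Hba-a1 of the erythroid list lay at or below the array median throughout. Of the 5 genes of the sorting gate and precursor state, Ptprc and Flt3 fell and none rose (sums from 48728 to 63314 in BCS and from 60465 to 66710 in WT EPLMs), and all 5 lay above the array median on each array. Fewer cells of a type and less RNA per cell cannot be told apart in these samples. The part of other cells in the results below was not tested. Pou2af1, the mouse gene of OBF1, had intensities of 10784, 10858 and 10323 in BCS EPLMs and of 6278, 7250 and 3400 in WT EPLMs. By qPCR, the paper reports endogenous OBF1 RNA as undetectable in WT EPLMs and upregulated in BCS EPLMs. The direction is the same here, but the WT array values lie far above the array median of 20, and the reason for this difference was not tested. The Pou2af1 log2 change of 0.99 (SE 0.23, limma adjusted p = 0.0436) does not check the human transgene, whose match to this mouse probe set is not known. The call was lost without any 1 array other than WT replicate 2 or WT replicate 3 (limma adjusted p from 0.0599 to 0.132), without the variance trend (0.0962), with robust variances (0.109) and with the mean of probe sets (0.0511). Without WT replicate 3 the log2 change was 0.66 (limma adjusted p = 0.00594).

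**Figure D3:**
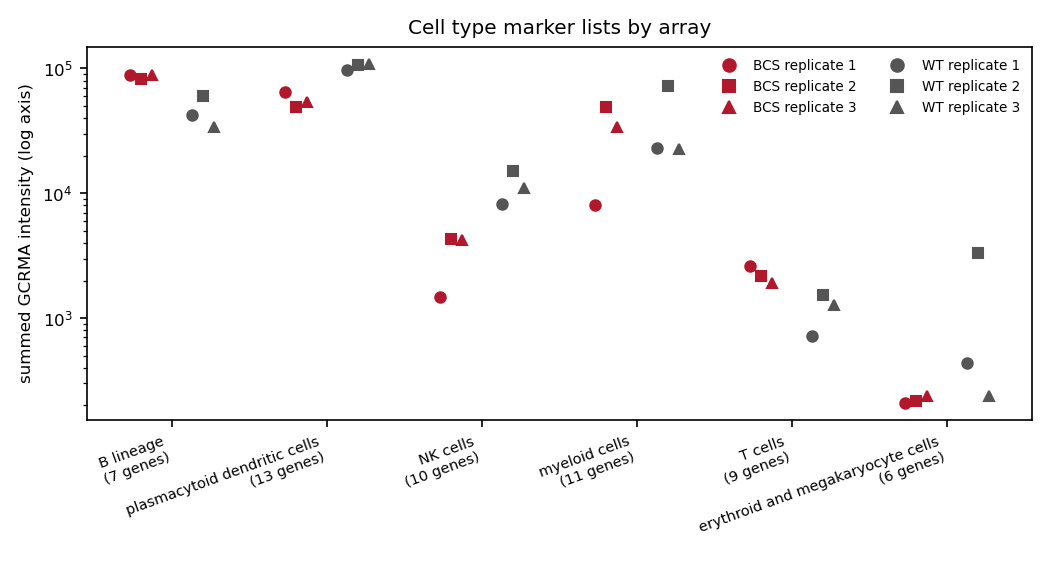
Summed GCRMA intensity (log axis) of 6 lists of cell type markers on each EPLM array, with BCS mice in red and WT mice in gray and 1 symbol per replicate number. B lineage sums of the 3 BCS mice (81790 to 88162) lie above those of the 3 WT mice (34192 to 60095), plasmacytoid dendritic cell sums lie below them, and WT replicate 2 has the highest myeloid and megakaryocyte sums.

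Tnfsf11 (Entrez gene 21943) had the largest log2 change of the family in either direction. Its brightest probe set had intensities of 1311, 2075 and 1168 in BCS EPLMs and of 284, 136 and 464 in WT EPLMs. The genotypes were far apart, and the lowest BCS value was above 2 times the highest WT value. The means were 1518 ± 488 in BCS and 295 ± 164 in WT EPLMs (SD, n = 3 each), and the log2 change was 2.48 (SE 0.40, 95% interval from 1.57 to 3.40, limma adjusted p = 0.00828). RANK ligand is a product of activated T cells, osteoblast lineage cells and some B lineage cells. The call held without each array in turn, at a limma adjusted p from 0.00423 to 0.0379 and log2 changes from 2.02 to 2.90. The other probe set of the gene stayed below the array median on all 6 arrays, with 17.3, 17.5 and 15.5 in BCS EPLMs and 14.1, 10.8 and 12.3 in WT EPLMs, and did not pass (log2 change 0.41, SE 0.12, limma adjusted p = 0.0935). With the mean of both probe sets the log2 change was 1.45 (limma adjusted p = 0.0128).

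The receptors of RANK ligand lay near or below the array median in both genotypes. Tnfrsf11a, which encodes RANK, had 21.3, 16.7 and 19.6 in BCS EPLMs and 19.4, 13.1 and 19.3 in WT EPLMs (log2 change 0.16, SE 0.17, limma adjusted p = 0.711). Tnfrsf11b, which encodes the soluble decoy osteoprotegerin, had 10.3, 11.2 and 13.8 in BCS EPLMs and 10.3, 11.6 and 11.9 in WT EPLMs (log2 change 0.05, SE 0.11, limma adjusted p = 0.886). Apart from 1 BCS value of Tnfrsf11a, all of these lie at or below the array median.

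Tnfsf10 (Entrez gene 22035), which encodes the apoptosis-inducing ligand TRAIL, did not pass, although its genotypes did not overlap. Its brightest probe set had 1013, 684 and 775 in BCS EPLMs and 355, 491 and 555 in WT EPLMs. The log2 change was 0.82 (SE 0.21, 95% interval from 0.34 to 1.31, limma adjusted p = 0.0628). The dimmer probe sets of the gene gave 81.3, 51.4 and 50.5 in BCS EPLMs against 32.8, 39.1 and 36.7 in WT EPLMs, and 69.4, 44.7 and 39.6 in BCS EPLMs against 31.5, 30.2 and 29.8 in WT EPLMs. On all 3 probe sets each BCS mouse lay above each WT mouse, with BCS replicate 1 highest, and the log2 changes of the dimmer ones were 0.71 (SE 0.22, adjusted p = 0.111) and 0.69 (SE 0.22, limma adjusted p = 0.121). These probe sets read the same RNA samples and are not further replicates. With robust variances or the filter on dim probe sets Tnfsf10 passed (limma adjusted p = 0.0456 and 0.0409). Among the TRAIL receptors, the death receptor Tnfrsf10b and the decoy Tnfrsf23 lay below the array median on all arrays. The decoy Tnfrsf22 had 19.8, 20.5 and 23.6 in BCS EPLMs against 17.9, 16.2 and 17.6 in WT EPLMs, which straddles that median (limma adjusted p = 0.257).

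**Figure D4:**
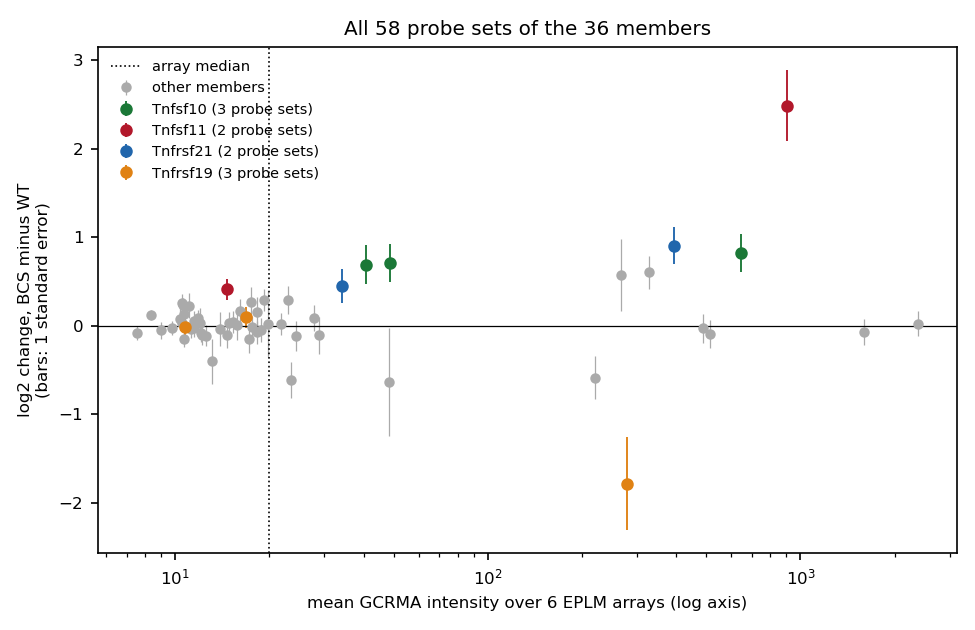
Log2 change (BCS minus WT EPLMs, bars of 1 SE from limma) against the mean intensity over 6 EPLM arrays (log axis) for all 58 probe sets of the 36 members. The 3 Tnfsf10 probe sets lie between 0.69 and 0.82, and probe sets left of the dotted array median carry little signal.

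Fasl, the ligand of Fas and a product of cytotoxic lymphocytes, varied widely among the mice of each genotype. Its intensities were 14.5, 55.3 and 37.5 in BCS EPLMs and 19.95, 108 and 53.8 in WT EPLMs, and the genotypes overlapped (log2 change -0.63, SE 0.61, limma adjusted p = 0.666). The cytotoxic granule gene Gzma, of the NK list, had 154, 2148 and 1152 in BCS EPLMs and 885, 4690 and 2296 in WT EPLMs. Both genes were lowest on BCS replicate 1 and highest on WT replicate 2, and within each genotype replicate 1 was lowest and replicate 2 highest. The myeloid markers S100a8, S100a9 and Fcgr3 had the same order, so it was not particular to cytotoxic genes. Most NK markers had it too, but Klrd1, Klrk1 and Prf1 did not. Without 1 array the log2 change of Fasl ran from -1.26 (without WT replicate 1) to -0.07 (without WT replicate 2), with a limma adjusted p from 0.266 to 0.975. Fas itself lay between 16.4 and 20.5 on all arrays.

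Of the 5 death domain receptors, Tnfrsf21 rose and the others did not pass. Tnfrsf21 (Entrez gene 94185) had 556, 516 and 460 in BCS EPLMs and 224, 244 and 366 in WT EPLMs. The groups did not overlap, and WT replicate 3 lay nearest to the BCS mice. The means were 511 ± 48.2 in BCS and 278 ± 76.8 in WT EPLMs (SD, n = 3 each), with a log2 change of 0.90 (SE 0.21, 95% interval from 0.43 to 1.38, limma adjusted p = 0.0407). In mice lacking DR6, B and T cells proliferate more after stimulation, and its known functions also include axon pruning. A dimmer probe set had 42.3, 47.7 and 29.7 in BCS EPLMs and 30.0, 28.2 and 27.3 in WT EPLMs and did not pass (log2 change 0.45, SE 0.20, limma adjusted p = 0.267). The Tnfrsf21 call was lost without any 1 array other than WT replicate 3 (limma adjusted p from 0.0814 to 0.128), while without WT replicate 3 the log2 change was 1.12 (limma adjusted p = 0.0183).

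Tnfrsf1a, the TNF receptor with a death domain, had 533, 465 and 489 in BCS EPLMs and 453, 604 and 535 in WT EPLMs. Its log2 change was -0.09 (95% interval from -0.45 to 0.27, limma adjusted p = 0.834). The TNF receptor without a death domain, Tnfrsf1b, had 515, 412 and 520 in BCS EPLMs and 540, 488 and 443 in WT EPLMs (log2 change -0.03, 95% interval from -0.40 to 0.34, limma adjusted p = 0.96). Both receptors overlapped between genotypes, and the intervals leave room for changes of up to about 0.45 in size on the log2 scale. Their ligand gene Tnf lay between 27.7 and 29.7 in BCS EPLMs and between 25.1 and 30.5 in WT EPLMs, close to the array median. Tnfrsf10b and Tnfrsf25, which encodes death receptor DR3, lay below the array median on every array.

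Promoter sequences are shown for Tnfsf11 and Tnfrsf21, the members that rose, and for Tnfsf10, whose probe sets were all higher, because OBF1 acts through octamer motifs. They are RefSeq windows of build GRCm38.p6, from 250 bases before to 50 after the annotated start, and capitals mark a stretch of 8 bases closest to the octamer ATGCAAAT, searched on both strands. In the Tnfrsf21 window other stretches on either strand were equally close, and the first on the strand shown is marked. In the Tnfsf10 window the other equally close stretches match the octamer on the opposite strand only. The windows are chr14:78307994-78308293 on the minus strand for Tnfsf11, chr17:43016305-43016604 on the plus strand for Tnfrsf21 and chr3:27316827-27317126 on the plus strand for Tnfsf10.
Tnfsf11: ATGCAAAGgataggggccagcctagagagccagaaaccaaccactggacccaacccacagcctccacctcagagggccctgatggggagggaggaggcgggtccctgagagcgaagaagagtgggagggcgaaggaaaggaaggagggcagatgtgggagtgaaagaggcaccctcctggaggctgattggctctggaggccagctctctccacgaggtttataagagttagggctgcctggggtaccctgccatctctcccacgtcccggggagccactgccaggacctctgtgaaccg
Tnfrsf21: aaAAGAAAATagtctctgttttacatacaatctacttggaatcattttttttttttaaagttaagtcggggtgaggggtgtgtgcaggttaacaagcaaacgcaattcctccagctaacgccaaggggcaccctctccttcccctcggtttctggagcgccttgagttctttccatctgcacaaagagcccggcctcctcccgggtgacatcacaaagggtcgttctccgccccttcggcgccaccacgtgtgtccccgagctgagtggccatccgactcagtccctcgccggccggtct
Tnfsf10: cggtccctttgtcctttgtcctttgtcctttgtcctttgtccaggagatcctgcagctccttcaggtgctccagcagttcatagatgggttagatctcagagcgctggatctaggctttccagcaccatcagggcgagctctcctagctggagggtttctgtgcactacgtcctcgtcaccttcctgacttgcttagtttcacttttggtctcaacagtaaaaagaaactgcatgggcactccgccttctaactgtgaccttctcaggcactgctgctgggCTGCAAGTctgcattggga
The marked stretch of the Tnfsf11 window, at its far end 250 bases before the start, differs from the octamer at 1 base, and the closest stretches of the Tnfrsf21 and Tnfsf10 windows differ at 2 bases. Windows with at most 1 mismatch are common, at 18.6% of all 32851 windows and 5 of the 32 windows found for 28 of the members (Tnfsf11, Fasl, Tnfrsf13b, Tnfrsf17 and Tnfrsf9). The exact octamer was in none of the 32 and in 1.74% of all windows. Of other motifs searched on both strands, none of which contains another, the E box CAGGTG was in 10 of 32 member windows (20.2% of all), the E box CAGCTG in 6 (16.3%), and the TATA box TATAAA in 5, including that of Tnfsf11 (13.6%). In the Tnfsf11 window the TATAAA match is on the opposite strand only, and the strand shown reads TTTATA there. These matches describe the letters of short windows and say nothing of binding.

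The receptors of BAFF and APRIL did not pass in either direction. Tnfrsf13b, which encodes TACI, had 2687, 1928 and 2603 in BCS EPLMs and 2153, 2469 and 2415 in WT EPLMs (log2 change 0.02, 95% interval from -0.30 to 0.34, limma adjusted p = 0.961). Tnfrsf13c, which encodes the BAFF receptor, had 1416, 1364 and 1905 in BCS EPLMs and 1607, 1606 and 1651 in WT EPLMs (log2 change -0.07, 95% interval from -0.40 to 0.25, limma adjusted p = 0.861). For both, the WT range lay within the BCS range. The same mice differed in the B lineage markers Igll1 and Vpreb1, the surrogate light chain genes, with 31071, 29224 and 30688 in BCS EPLMs against 9542, 18818 and 7283 in WT EPLMs for Igll1. Tnfrsf17, which encodes the plasma cell receptor BCMA, lay below the array median on all arrays. Tnfsf13b, which encodes BAFF, had 13.4, 24.0 and 19.8 in BCS EPLMs and 13.0, 36.1 and 12.9 in WT EPLMs, with its highest value again on WT replicate 2.

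Of the 7 costimulatory receptors, which bind TRAF adaptors, none passed. Tnfrsf18, which encodes GITR of regulatory and activated T cells, had 416, 417 and 346 in BCS EPLMs and 215, 315 and 252 in WT EPLMs. The genotypes did not overlap, with a log2 change of 0.60 (SE 0.19, 95% interval from 0.17 to 1.03, limma adjusted p = 0.119). Cd27, a receptor of lymphocytes and of early progenitors, ran the other way, with 183, 159 and 172 in BCS EPLMs and 245, 190 and 367 in WT EPLMs (log2 change -0.59, SE 0.24, limma adjusted p = 0.235). Its groups did not overlap, WT replicate 2 lay close to the BCS mice, and without WT replicate 3 the log2 change was -0.33 (limma adjusted p = 0.508). Tnfrsf9, an activation-induced receptor of T and NK cells, had 15.2, 19.1 and 19.9 in BCS EPLMs and 22.4, 38.0 and 25.7 in WT EPLMs, so that all BCS values lay under the array median and all WT values over it, with WT replicate 2 highest (log2 change -0.61, SE 0.20, limma adjusted p = 0.142). Cd40, whose signal B cells need for germinal centers, lay between 23.1 and 31.3 in BCS EPLMs and between 22.2 and 36.2 in WT EPLMs (limma adjusted p = 0.85). Tnfrsf14 was above the array median on 1 array, and Tnfrsf4 and Tnfrsf8 were on none.

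Tnfrsf19, which encodes the orphan receptor TROY, had the largest negative log2 change of the family and did not pass. It had 92.4, 111 and 112 in BCS EPLMs and 549, 675 and 129 in WT EPLMs. WT replicate 3 stood next to the BCS mice, at 129 against the highest BCS value of 112, while the other WT mice were far above. The log2 change was -1.78 (SE 0.53, 95% interval from -2.98 to -0.59, limma adjusted p = 0.0989). Without WT replicate 3 it was -2.53 (limma adjusted p = 0.000883), and without any other array the adjusted p stayed at 0.198 to 0.259. In mice this receptor is known from the nervous system, hair follicles and stem cells of the gut. The other 2 probe sets of Tnfrsf19 lay below the array median on all arrays. Of the remaining receptors of this group, Ltbr, the lymphotoxin receptor of stromal cells, and Tnfrsf12a, which binds TWEAK, lay between 13.1 and 23.8 on all arrays.

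Among the lymphotoxins, Ltb, which forms membrane heterotrimers with lymphotoxin alpha, had 181, 296 and 477 in BCS EPLMs and 120, 316 and 206 in WT EPLMs. The groups overlapped, and the log2 change was 0.57 (SE 0.41, limma adjusted p = 0.535). It was 0.21 without WT replicate 1, 0.22 without BCS replicate 3, 0.90 without WT replicate 2 and 0.92 without BCS replicate 1. Lta lay below the array median on all arrays, and Tnfsf14, which encodes LIGHT, was above it only on WT replicate 2, at 23.7. Of the 4 costimulatory ligands, Tnfsf8, the CD30 ligand, had 25.4, 26.8 and 23.3 in BCS EPLMs and 22.4, 23.0 and 16.5 in WT EPLMs, without overlap but close to the array median (limma adjusted p = 0.401). Tnfsf9 was above the median on 1 array, and Cd70 and Tnfsf4 on none. Of the 20 ligand and receptor pairs with both genes measured, only the pairs of Tnf with Tnfrsf1a and with Tnfrsf1b had both genes above the array median on all 6 arrays. Tnf lay close to that median, so whether it is expressed cannot be judged. Tnfsf13os lay below the array median on every array, as did 5 of the 6 superfamily genes outside the rule (Cd40lg, Ngfr, Edar, Eda and Eda2r), and none of those 6 passed (log2 changes from -0.34 to 0.07).

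Downstream of the receptors, 33 of 36 listed genes of receptor-proximal signaling were measured, and 3 rose and 1 fell in BCS EPLMs. These are 9.09% and 3.03% of the list, where 3.15% of all genes rose and 4.7% fell, and the 33 log2 changes had a median of 0.04. Traf5, an adaptor of CD27, CD40 and other costimulatory receptors, had 593, 552 and 548 in BCS EPLMs and 312, 318 and 295 in WT EPLMs. The replicates lay close together in each genotype, with a log2 change of 0.87 (SE 0.14, limma adjusted p = 0.00828), and the call held without each array in turn (limma adjusted p from 0.026 to 0.0405). Traf4, a divergent member of the TRAF family, had 93.7, 140 and 104 in BCS EPLMs and 45.8, 56.3 and 40.1 in WT EPLMs (log2 change 1.23, SE 0.22, limma adjusted p = 0.0124). The groups did not overlap, and without WT replicate 3 the adjusted p was 0.0542.

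Otulin, which cleaves linear ubiquitin chains at the receptor complexes, had 1239, 1168 and 1388 in BCS EPLMs and 840, 862 and 882 in WT EPLMs (log2 change 0.55, SE 0.12, limma adjusted p = 0.0359). Map3k5, which encodes the stress kinase ASK1, was the only gene of the list that fell, with 2737, 2180 and 2927 in BCS EPLMs and 3727, 4022 and 3713 in WT EPLMs (log2 change -0.56, SE 0.12, limma adjusted p = 0.0307). Both genes separated the genotypes on all 6 arrays. The Otulin call was lost without any 1 array (limma adjusted p from 0.0682 to 0.12), and the Map3k5 call without any but BCS replicate 3 (adjusted p from 0.0512 to 0.108). The remaining 29 genes did not pass, among them the ligase gene Birc2 (log2 change 0.22), the caspase gene Casp8 (0.14), its inhibitor Cflar (-0.30) and the adaptor gene Traf1 (-0.83, SE 0.24, limma adjusted p = 0.0933), which were chosen after their values were seen.

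**Figure D5:**
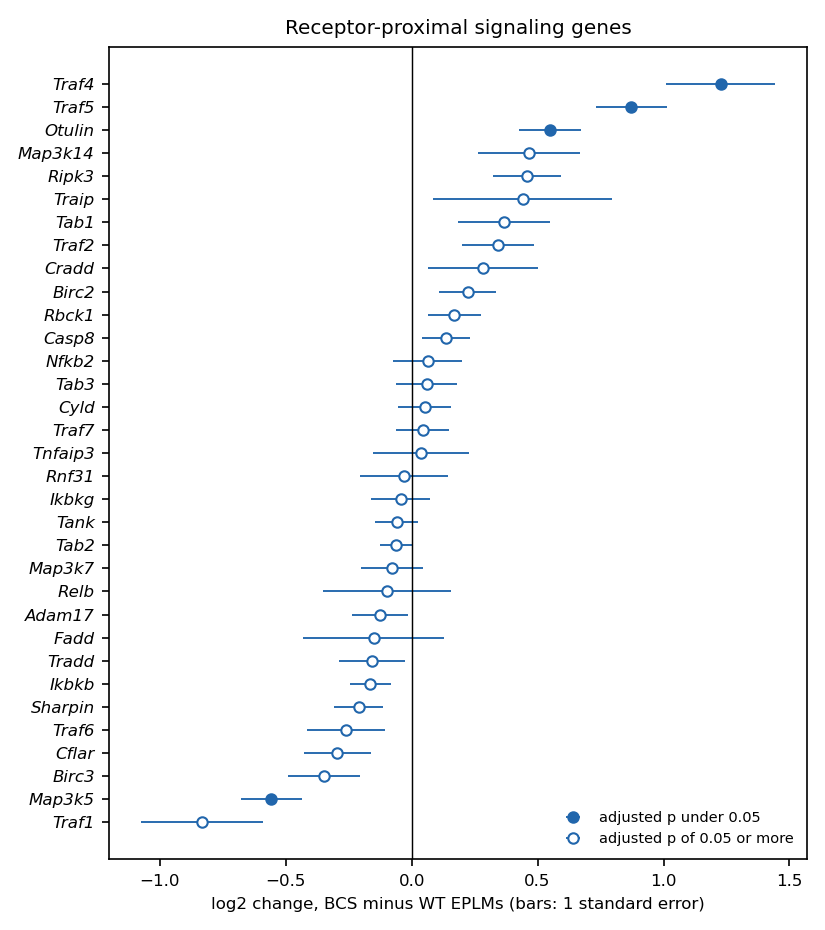
Log2 change of GCRMA intensity (BCS minus WT EPLMs, 3 mice each) of 33 genes of receptor-proximal signaling in order of size, with bars of 1 SE from limma. Filled points passed an adjusted p of 0.05, with Traf4 at 1.23, Traf5 at 0.87 and Otulin at 0.55 higher and Map3k5 at -0.56 lower in BCS EPLMs.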

How the data were processed

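EPLMs, sorted by flow cytometry from bone marrow, were profiled on Mouse 430v2 GeneChips. The authors deposited linear GCRMA intensity values (version not given in the sources used here), 1 column per array, with a median of 20, an upper quartile of 337 and replicate correlations of log2 values from 0.993 to 0.995. RNA labeling is given as 2 cycles in the published methods but as 1 cycle in the labels. The 7 Large PreB columns were not used for any gene: across 45037 probe sets their mean log2 levels correlated with those of EPLMs at r = 0.0944, and across 64 control features at r = 0.978. Limma 3.58.1 in R 4.3.3 (lmFit, then eBayes with an intensity trend) was run on log2(intensity + 1) for BCS minus WT without covariates, and p was adjusted by Benjamini-Hochberg over 45037 probe sets. Genes were read from their brightest probe set over the 6 EPLM arrays. Of the probe sets, 34945 have 1 symbol, 932 several and 9160 none. Of 41 RefSeq symbols that fit the rule, Tnfrsf26, Tnfsf12, Tnfsf13, Tnfsf15 and Tnfsf18 had no such probe set and are not analysed here. All 36 members matched the RefSeq table by Entrez ID. No genome build is stated with the values. The number of arrays limits the precision.

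Members and lists were chosen with earlier results of these data known. Named in full were members past the threshold, those without overlap and a log2 change of at least 1 in size, the 5 of highest WT intensity and the partners of those that passed; up to 3 others per role follow by intensity, and some were added after their values were seen. Alternatives were the methods' Student t-test (log2 and linear values), robust variances, eBayes without the trend, an offset of 16, quantile normalization, a filter on dim probe sets, the replicate number as a block, an adjusted p under 0.01, 2-fold medians, the probe set of largest spread or the mean of probe sets per gene, and leaving out each array.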

Additional observations from a re-analysis of the deposited data

How the results depend on the processing

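With the methods' t-test on log2 values, adjusted over all probe sets, 52 genes were higher and 83 lower in BCS EPLMs, against 573 and 855 with limma, with 0 members, 1 higher signaling gene and 0 lower ones. On linear values the t-test gave 30 and 47 genes, 0 members, and 1 and 0 signaling genes. An adjusted p under 0.01 left 220 higher and 428 lower genes, 1 member (Tnfsf11), and 1 higher (Traf5) and 0 lower signaling genes. Medians at least 2-fold apart left 238 and 434 genes, and 1 and 0 signaling genes, with both members kept. The replicate number as a block left 1 higher member and 0 lower signaling genes, with limma adjusted p = 0.0873 for Tnfrsf21, 0.0809 for Otulin and 0.0664 for Map3k5. No lower signaling gene passed without the trend or with the probe set of largest spread. What same-numbered arrays share beyond the number is not given in the sources used here. Over all probe sets their deviations from the group means correlated at -0.000213, 0.0675 and 0.0585, and not every array correlated best with its own number. Single genes could still share an order, as Fasl and Gzma were lowest on replicate 1 and highest on replicate 2 in both genotypes. With the block the limma adjusted p of Fasl was 0.139, against 0.666 without it. A shared batch or litter was not tested.

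Without 1 array, 312 to 525 genes were higher and 539 to 811 lower, 1 to 2 members were higher and 0 to 1 lower (Tnfrsf19, without WT replicate 3), and 1 to 2 signaling genes were higher and 0 to 1 lower. Higher genes fell to 312 without BCS replicate 2 or WT replicate 3, 337 without BCS replicate 3 and 369 without WT replicate 1, and lower genes to 542, 539 and 603 without BCS replicate 2, WT replicate 3 and BCS replicate 3. The sign of members that did not pass turned in these fits: log2 changes ran from -0.0639 to 0.18 for Tnfrsf13b, from -0.22 to 0.0188 for Tnfrsf13c, from -0.20 to 0.00775 for Tnfrsf1a, from -0.10 to 0.0819 for Tnfrsf1b, from -0.0196 to 0.25 for Tnfrsf11a and from -0.0635 to 0.13 for Tnfrsf11b. The median over the members stayed between -0.02 and 0.07. The remaining alternatives left these counts within 1.5 times. The causes were not tested.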
